A study of Mus musculus with 21 samples.

Results

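The comparison described here sets the RNA contacts of SRSF3 against those of SRSF7 in the nucleoplasm, the soluble part of the nucleus, of P19 cells. P19 is a mouse embryonal carcinoma line. One set of cells expressed SRSF3 fused to green fluorescent protein (SRSF3-GFP) and the other SRSF7-GFP, with no other treatment named. The labels do not say which promoter drove the fusions or whether each line is 1 clone, and they describe no cells without a tagged protein. Cells were crosslinked with ultraviolet light of 254 nm at 100 mJ/cm2 and fractionated before iCLIP, in which the end of each cDNA marks a nucleotide that touched the protein. The 2 nucleoplasm groups hold 7 of the 21 samples of the series, 4 for SRSF3 and 3 for SRSF7. They were chosen by their labels, and all listed positions were used.

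SRSF3 and SRSF7 are small members of the SR protein family, with 1 RNA recognition motif and a domain rich in arginine and serine. SR proteins bind exons and help the splicing machinery choose them. SRSF3 and SRSF7 also shuttle between nucleus and cytoplasm and act as adaptors for mRNA export. SR protein genes are known for regulating themselves and each other, by splicing their own pre-mRNA into forms that are degraded.

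Each group was deposited as 1 pooled list of single nucleotides with cDNA counts. There is therefore no spread between replicates, no p-value is given, and the 95% intervals below cover counting error only. The SRSF3 list held 109400 positions and 315510 cDNAs, and the SRSF7 list 130679 positions and 275018 cDNAs. SRSF3 cDNAs were the more concentrated. They averaged 2.88 per position against 2.10, and positions with at least 10 cDNAs held 46.9% of SRSF3 cDNAs against 31.6% of SRSF7 cDNAs. Much of this gap lay in ribosomal and mitochondrial RNA, described below. The 45S ribosomal locus averaged 23.1 SRSF3 cDNAs per position against 9.37 for SRSF7. Outside these RNAs, 232010 SRSF3 cDNAs lay at 105167 positions and 254251 SRSF7 cDNAs at 128447 positions, a smaller gap. The headers of the 2 lists also differ in wording on how peaks were called, and its part in the results was not tested. All values are shares of each list's summed count. A share depends on how much of an RNA is present as well as on how often it is bound, and these cannot be told apart here.

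Positions of all 6 lists of the series, chromatin and cytoplasm included, were joined into loci on 1 strand wherever gaps were at most 10000 nt. A locus therefore often matches a gene but can merge neighbours. Gene names rest on known gene positions in mm9. Of 17337 loci listed for either protein, 4623 were listed for both. Loci with at least 50 cDNAs in both lists together and at least 10 in each were compared, 1093 in all. A locus was called higher for 1 protein when the 95% interval of the ratio of shares lay wholly beyond 2-fold. By that rule 139 loci (12.7%) were higher for SRSF3 and 200 (18.3%) were higher for SRSF7, 31.0% together. The median log2 ratio of SRSF3 to SRSF7 over all compared loci was -0.06.

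**Figure D1:**
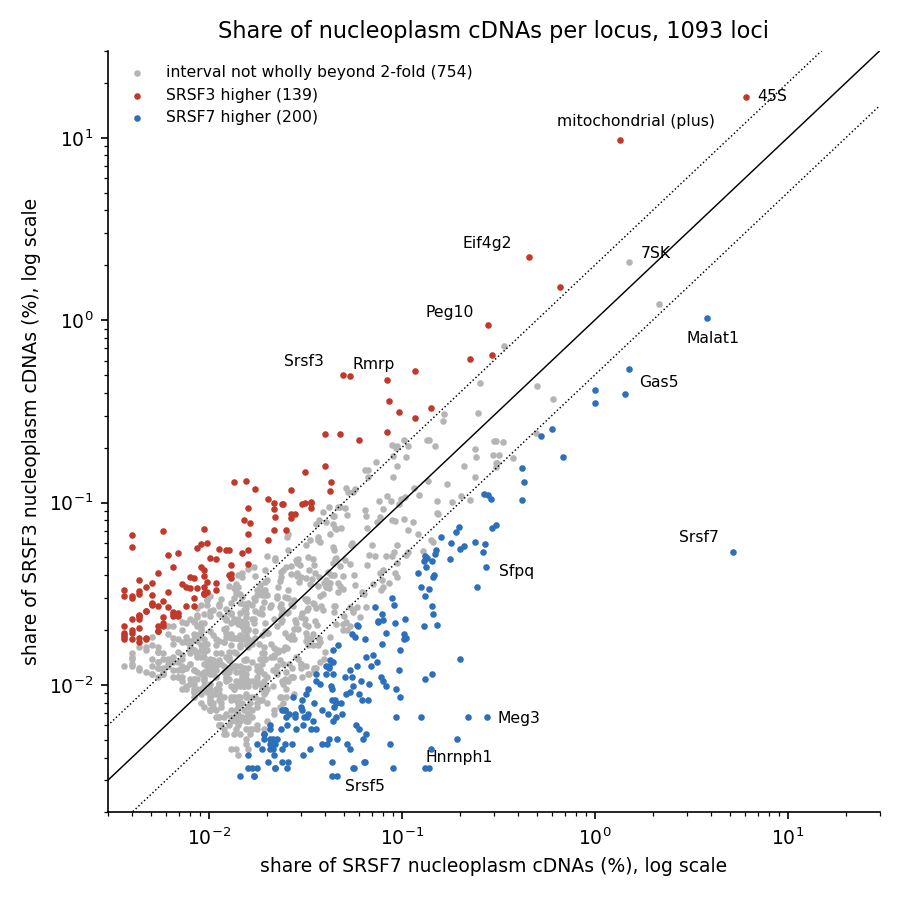
Each point is 1 of the 1093 compared loci, with its share of SRSF7 nucleoplasm cDNAs on the horizontal axis and of SRSF3 nucleoplasm cDNAs on the vertical axis, both in percent on log scales. The solid line marks equal shares and the dotted lines 2-fold. The 139 red points were called higher for SRSF3 and include the 45S and mitochondrial loci at the top, and the 200 blue points were called higher for SRSF7 and include Srsf7 far to the right.

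Ribosomal and mitochondrial RNA took up much more of the SRSF3 list. The 45S locus (chr17:39979938-39985047 of mm9, plus strand), where the genome holds a copy of the ribosomal RNA precursor, had 52606 SRSF3 cDNAs and 16803 SRSF7 cDNAs. The shares were 16.7% (16.5 to 16.8) and 6.11% (6.02 to 6.20), a ratio of 2.73. The mitochondrial genome held 9.79% of SRSF3 and 1.44% of SRSF7 cDNAs. Together these RNAs made up 26.5% of the SRSF3 list and 7.55% of the SRSF7 list. Leaving both out raises the log2 ratio of every other locus by 0.33. The calls then turn from mostly SRSF7-higher to mostly SRSF3-higher, with 211 loci higher for SRSF3 and 138 for SRSF7 of 1090. The balance between the directions therefore depends on the denominator.

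The mitochondrial difference was not even across that genome. Mitochondrial DNA is transcribed from both strands into long precursors that are cut into rRNAs, tRNAs and mRNAs. The 2 mitochondrial rRNAs made up 82.8% of the SRSF3 and 83.8% of the SRSF7 mitochondrial cDNAs, and their share was 6.71-fold higher for SRSF3 (6.47 to 6.96). The mRNAs differed by far more, with 4543 SRSF3 cDNAs against 80 SRSF7 cDNAs, a ratio of 49.5 (39.7 to 62.5). ND1, a subunit of respiratory complex I, had 1026 and 29 cDNAs. COX1, the catalytic subunit of cytochrome oxidase, had 794 and 21. ND2, ND5 and CYTB had 422, 996 and 700 SRSF3 cDNAs and 0 listed SRSF7 cDNAs. Taken as 3 counts of the total, 0 allows a listed share of up to 0.00109%. It sets no limit on cDNAs at positions left out of the list. Of the 13 mRNAs, 7 were listed for SRSF3 and 4 for SRSF7. The other 6, from COX2 to ND4L, were listed for neither.

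The mitochondrial tRNAs showed no such gap. They had 721 SRSF3 and 546 SRSF7 cDNAs, a ratio of 1.15 (1.03 to 1.29), and made up 2.33% of the SRSF3 mitochondrial cDNAs but 13.8% of those of SRSF7. TrnC was lower in SRSF3, at 55 cDNAs against 121 (log2 -1.34, -1.82 to -0.86), while TrnV was higher, with 294 against 45. The strands differed too. The plus strand, which carries both rRNAs and most mRNAs, had 30584 and 3699 cDNAs, whereas the minus strand had 310 and 265, a log2 ratio of 0.03 (-0.21 to 0.27). ND6, the mRNA of the minus strand, had 106 and 9 cDNAs (log2 3.36, 2.38 to 4.53). In the other fractions the plus strand was called in neither direction, against a log2 ratio of 2.85 in nucleoplasm. It held 14.99% of SRSF3 and 8.07% of SRSF7 cDNAs in cytoplasm (log2 0.89). In chromatin the shares were 0.177% and 0.285% (log2 -0.68). The cause of this difference between fractions was not tested.

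Each protein's largest call among SR protein genes lay at its own gene. The Srsf7 locus (chr17:80586414-80606648, minus strand) held 14384 SRSF7 cDNAs and 168 SRSF3 cDNAs. These were 5.23% and 0.0532% of the lists, a log2 ratio of -6.62 (-6.85 to -6.40). The Srsf3 locus (chr17:29164512-29186676, plus strand) held 1584 SRSF3 cDNAs and 136 SRSF7 cDNAs. These were 0.502% and 0.0495%, a log2 ratio of 3.34 (3.09 to 3.61). Both ratios had the same sign in chromatin, at -5.08 and 3.55, and in cytoplasm, at -8.80 and 3.37.

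The excess did not stop at the ends of these genes, although around Srsf3 it went on only on the opposite strand. The windows used to measure it, 4 of 50 kb around each gene, were chosen after the values were seen. Around Srsf7 they held 17310 SRSF7 cDNAs, of which 2604 lay on the strand of the gene beyond its own locus and 322, at 203 positions, on the opposite strand. SRSF3 had 8 and 0 cDNAs in the same places. The next locus on the strand of Srsf7 (chr17:80637679-80689490) had 2600 SRSF7 cDNAs and 5 SRSF3 cDNAs. The 13 windows farther out, centred up to 400 kb away, held 72 SRSF7 cDNAs in all, so the excess ended abruptly.

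Around Srsf3 the pattern was smaller and ran the other way. On the strand of Srsf3 beyond its own locus the windows held 2 cDNAs of each protein, so no excess was listed there. The windows held 1980 SRSF3 cDNAs against 149 SRSF7 cDNAs, and on the strand opposite to Srsf3 there were 394 against 11. Of these, a locus that overlaps Srsf3 on the other strand (chr17:29180909-29189425) had 215 SRSF3 cDNAs and 0 SRSF7 cDNAs. Cpne5, a copine gene farther along, had 179 and 11, a log2 ratio of 3.83 (2.95 to 4.85). Outside the windows the lists had 114 and 80 cDNAs. The same surplus on the opposite strand was listed in the other fractions, in counts not scaled to list size. Around Srsf3 there were 451 SRSF3 against 3 SRSF7 cDNAs in chromatin and 296 against 20 in cytoplasm. The whole lists held 1768665 and 248498 cDNAs in chromatin and 257089 and 367298 in cytoplasm. In chromatin the Cpne5 locus had 366 SRSF3 and 0 SRSF7 cDNAs. Around Srsf7 the opposite strand had 3 SRSF3 against 169 SRSF7 cDNAs in chromatin and 2 against 196 in cytoplasm. What sets the bounds of these regions was not tested.

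**Figure D2:**
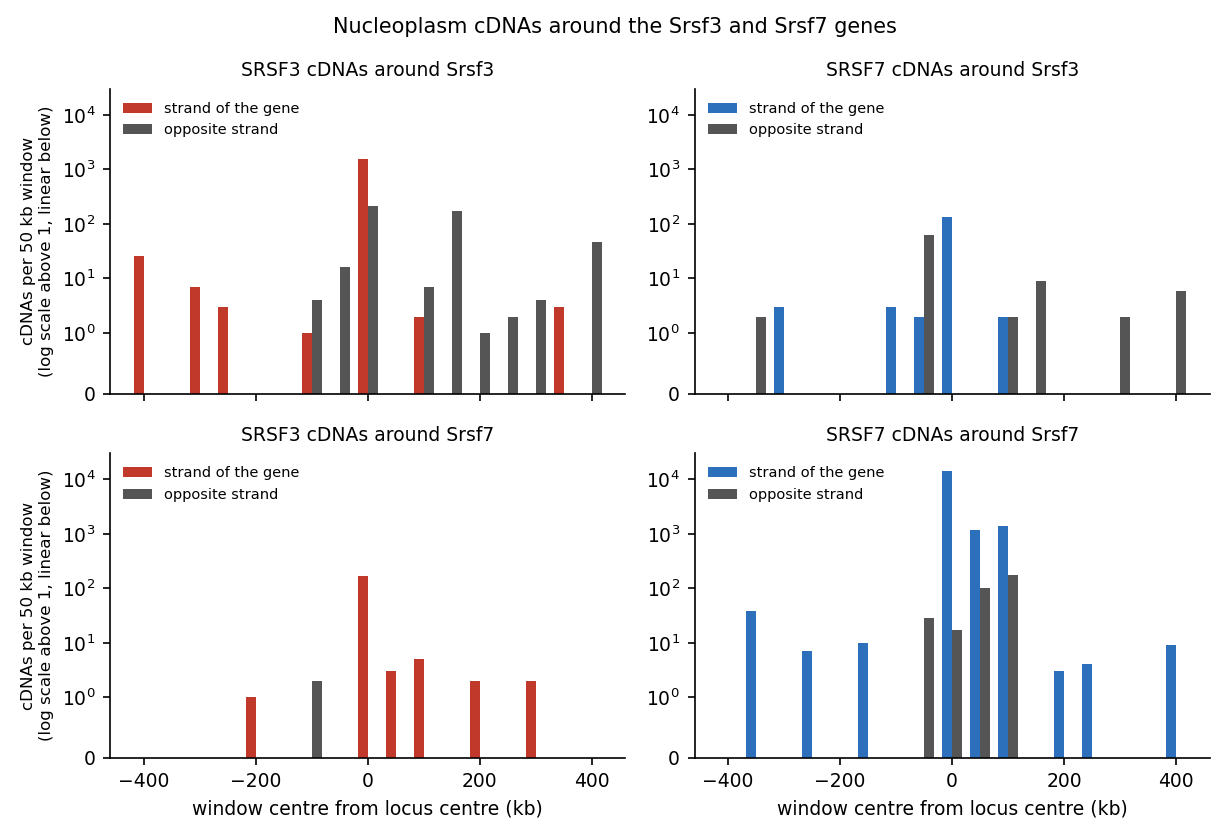
Nucleoplasm cDNAs in 50 kb windows up to 400 kb either side of the Srsf3 locus (top) and the Srsf7 locus (bottom), for SRSF3 (left) and SRSF7 (right), on an axis that is logarithmic above 1 and linear below. Coloured bars are the strand of the gene and grey bars the opposite strand. SRSF7 cDNAs around Srsf7 fill 4 adjacent windows, with 1193 and 1411 cDNAs on the strand of the gene in the outer pair to the right, and nearly stop beyond them.

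Genes for other SR proteins were mostly higher for SRSF7. Of 12 SR genes, 11 were listed and 10 compared. Of these, 6 were called higher for SRSF7 (18.3% of all compared loci), 1 for SRSF3 (12.7% of all) and 3 in neither direction. Leaving Srsf3 and Srsf7 aside, 5 of 8 were higher for SRSF7 and 0 for SRSF3, with a median log2 ratio of -2.50 against -0.06 over all compared loci. Srsf1, the founding member of the family, had 34 SRSF3 and 362 SRSF7 cDNAs, a log2 ratio of -3.61 (-4.16 to -3.10). Srsf11 had 12 and 178 (log2 -4.09) and Srsf5 had 10 and 127 (log2 -3.86). Srsf10, a splicing regulator responsive to heat shock, had 60 and 283 cDNAs (log2 -2.44). Tra2b, which binds purine-rich exonic enhancers, had 24 and 123 (log2 -2.56).

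The exceptions were Srsf2, Srsf6 and Tra2a. Srsf2 and Srsf6 had log2 ratios of -1.17 and -0.84, with intervals that reached inside 2-fold. Tra2a, a close relative of Tra2b, went the other way, with 641 SRSF3 and 260 SRSF7 cDNAs (log2 1.10, 0.89 to 1.32). It was called higher for SRSF3 when ribosomal and mitochondrial RNA were left out, at 1.43, and with positions of at least 3 cDNAs, at 2.08. Its SRSF3 cDNAs were concentrated, with 129 at the tallest position, where SRSF7 had 10. Srsf4 had 0 and 12 cDNAs, too few to compare.

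The hnRNP genes and other splicing regulators were counted in the same way. Of 12 genes, all listed, 8 were compared, and 5 were higher for SRSF7 and 0 for SRSF3, with a median log2 ratio of -2.18. Over all compared loci 18.3% were higher for SRSF7 and 12.7% for SRSF3. Hnrnph1, which encodes a protein that binds runs of G, had 16 SRSF3 cDNAs and 530 SRSF7 cDNAs, a log2 ratio of -5.25 (-6.07 to -4.54). Sfpq, a paraspeckle and splicing factor, had 139 and 754 (log2 -2.64). Hnrnpu, a nuclear scaffold protein, had 67 and 419 (log2 -2.84), and Hnrnpl had 49 and 270 (log2 -2.66). Hnrnpa1, Hnrnpa2b1 and Hnrnpk, at -0.99, -1.13 and -0.64, were called in neither direction. Hnrnpc was at the edge, with 23 and 66 cDNAs (log2 -1.72, -2.47 to -1.01), and its call was lost without ribosomal and mitochondrial RNA. Hnrnpd, Hnrnpm, Nono and Ptbp1 had too few cDNAs, and of these Nono (30 and 5) and Ptbp1 (26 and 17) had more SRSF3 than SRSF7 cDNAs.

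**Figure D3:**
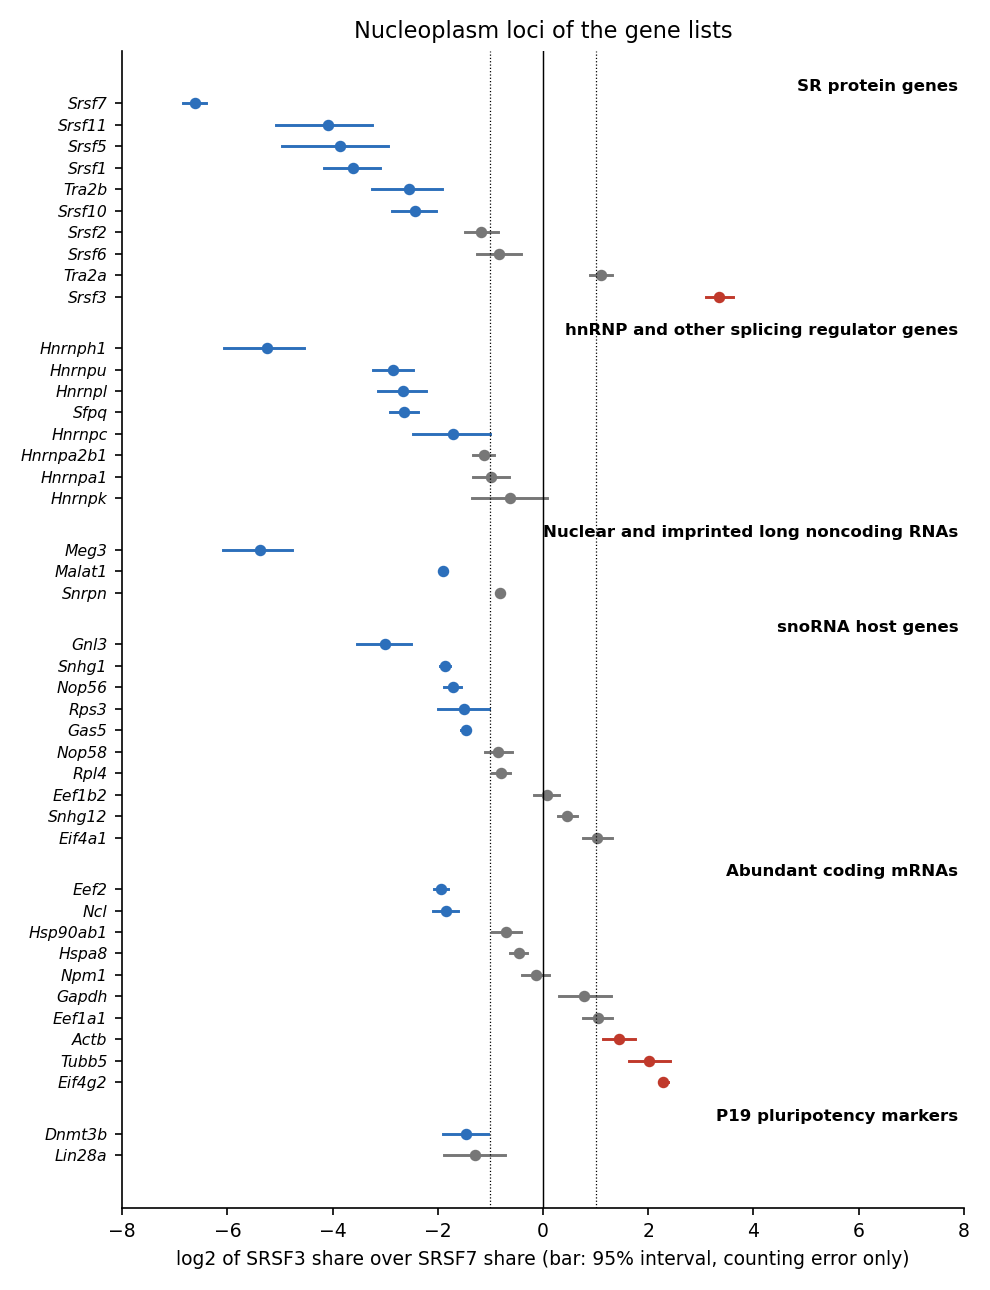
Log2 ratio of the SRSF3 share to the SRSF7 share for each compared locus of 6 gene lists, with 95% counting intervals as bars. Dotted lines mark 2-fold, and colours mark loci called higher for SRSF7 (blue), higher for SRSF3 (red) or neither (grey). Apart from Srsf3 and Tra2a, the SR genes lie to the left, from -0.84 to -6.62, as do all 8 compared hnRNP and related genes.

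The 12 lowest ratios were those of Srsf7, Hnrnph1, Srsf11, Meg3 and 8 further loci. Among these were Luc7l3 (21 SRSF3 and 608 SRSF7 cDNAs, log2 -5.05) and Luc7l2 (14 and 391 cDNAs), relatives of a yeast U1 snRNP component. Thrap3, an SR-related protein gene, had 15 and 239 cDNAs (log2 -4.19). Samd4, an RNA-binding regulator of translation, had 11 and 247 (log2 -4.69). Slc1a3, a glutamate transporter gene, had 11 and 364 (log2 -5.25), Brca1, a DNA repair gene, 21 and 347 (log2 -4.24), and Eif3a, a translation initiation factor gene, 12 and 176 (log2 -4.07). An unnamed locus (chr16:98289239-98303401, minus strand) had 11 and 380 (log2 -5.31). The SRSF7 cDNAs of Luc7l3 were thinly spread, with 608 at 451 positions. Over all 200 SRSF7-higher loci the median was 1.28 SRSF7 cDNAs per position, against 1.42 over all compared loci.

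The imprinted noncoding RNAs of chromosome 12 had few or no SRSF3 cDNAs. Meg3 (chr12:110781914-110809746, plus strand), the first RNA of that cluster, had 21 SRSF3 and 765 SRSF7 cDNAs, a log2 ratio of -5.39 (-6.09 to -4.76). Rian, a snoRNA host farther along, had 0 and 478 cDNAs. The 0 allows a listed SRSF3 share of up to 0.000951%, again 3 counts of the total, with no limit on unlisted cDNAs. Mirg, the last of the cluster, had 4 and 109. Meg3 was far lower for SRSF3 in chromatin too, with a log2 ratio of -5.29, while Rian (7 and 234 cDNAs) and Mirg (1 and 47) were under the minimum there. In cytoplasm Rian had 37 and 147 cDNAs and was called in neither direction (log2 -1.48, -2.04 to -0.95). The other long imprinted locus behaved differently. Snrpn, with the snoRNA cluster downstream, was called in neither direction, with 3882 and 5954 cDNAs (log2 -0.82, -0.87 to -0.76).

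Malat1, an abundant nuclear RNA of speckles, was higher for SRSF7. It had 10494 SRSF7 cDNAs, 3.82% of the list, against 3224 SRSF3 cDNAs, 1.02%, a log2 ratio of -1.90 (-1.96 to -1.84). Counted by positions, with 1606 against 958, the log2 ratio was -0.49 and the call was lost. The median SRSF3 cDNA lay 5103 nt from the 5′ end of the locus and the median SRSF7 cDNA 3886 nt, but the middle 50% overlapped, at 3427 to 6150 nt and 2812 to 5227 nt. Neat1, the paraspeckle RNA, had 4 and 5 cDNAs, and Xist was listed for neither protein. Of the 7 long noncoding RNAs, 3 were compared and 2 called, both higher for SRSF7 (18.3% of all compared loci).

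Host genes of snoRNAs carry in their introns the guide RNAs of rRNA modification. All 10 were compared, with 5 higher for SRSF7 (18.3% of all compared loci) and 0 for SRSF3 (12.7% of all). The median log2 ratio was -1.16. Gas5 had 1709 SRSF3 and 4127 SRSF7 cDNAs (log2 -1.47, -1.55 to -1.39), and its tallest positions lay 2494 nt apart. Snhg1 had 1243 and 3929 (log2 -1.86) and Nop56 411 and 1180 (log2 -1.72). Gnl3, a nucleolar GTPase gene, had 38 and 267 (log2 -3.01), and Rps3 52 and 129 (log2 -1.51). Without ribosomal and mitochondrial RNA 4 were higher for SRSF7 and 1, Eif4a1, for SRSF3 (log2 1.37 against 1.03 with them). These calls rest on tall positions in part. By numbers of positions Snhg1 turned to 0.27, and the calls of Gas5, Nop56 and Rps3 were lost. Leaving out only the tallest position of each locus in each list changed little. Over all named loci 77 then had the same result, 1 was weaker and 0 reversed.

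Abundant coding mRNAs were called in both directions. Of 12, 10 were compared, with 3 higher for SRSF3 (12.7% of all compared loci) and 2 for SRSF7 (18.3% of all). The median log2 ratio was 0.32. Eif4g2, an initiation factor of cap-independent translation, was the third highest locus of the SRSF3 list. It had 7023 SRSF3 cDNAs (2.23%) and 1256 SRSF7 cDNAs (0.457%) at chr7:118211535-118226516 on the minus strand, a log2 ratio of 2.29 (2.20 to 2.37). Tubb5, a tubulin gene, had 310 and 67 (log2 2.01) and Actb 364 and 117 (log2 1.44). Eef2 and Ncl, an elongation factor and nucleolin, were higher for SRSF7, with 562 and 1883 cDNAs (log2 -1.94) and 183 and 576 (log2 -1.85). The Eef2 ratio turned to 0.35 when positions were counted. Hspa8, Npm1, Hsp90ab1, Gapdh and Eef1a1 were called in neither direction.

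Among the 12 highest ratios, 6 belonged to unnamed loci of at most 308 nt. The top was an unnamed locus (chr1:155356568-155356826, minus strand), with 209 SRSF3 and 11 SRSF7 cDNAs (log2 4.05, 3.18 to 5.07). Polr2a, the largest subunit of RNA polymerase II, had 104 and 10 (log2 3.18), Zfp36l2, an mRNA decay factor gene, 97 and 10 (log2 3.08), and Qser1 413 and 43 (log2 3.07). The most covered of the short loci (chr1:72301591-72301898, plus strand) had 1566 and 149 cDNAs (log2 3.20), with its tallest position at the same nucleotide for both proteins. Peg10 and Rmrp, named after their values were seen, had 2960 and 768 (log2 1.75) and 1655 and 322 cDNAs (log2 2.16). Peg10 is an imprinted gene derived from a retrotransposon, and Rmrp the RNA of RNase MRP, which processes rRNA.

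The groups of loci also differed in span and in cDNAs per position. Spans were set by positions of all 6 lists, so they do not describe nucleoplasm cDNAs alone. Loci under 1 kb numbered 51 of the 139 SRSF3-higher loci (36.7%) and 10 of the 200 SRSF7-higher loci, against 20.0% of all compared loci. The median of SRSF3 cDNAs per position was 2.49 in SRSF3-higher loci, against 1.64 in all compared loci. The SRSF7 median was also higher in those loci, at 1.59 against 1.42 in all. In SRSF7-higher loci the SRSF3 median was 1.42. The calls rest on the same counts and so bear on these medians. The 10 highest loci held 36.7% of SRSF3 cDNAs and 25.1% of SRSF7 cDNAs. It took 56 loci to hold 50% of the SRSF3 cDNAs and 118 for SRSF7. Both measures include the 45S locus and the mitochondrial plus strand. These 2 held 16.7% and 9.69% of SRSF3 cDNAs, against 6.11% and 1.345% of SRSF7 cDNAs. The higher SRSF3 concentration by locus therefore rests largely on these RNAs.

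Some loci were listed for 1 protein alone. With at least 50 cDNAs there were 19 for SRSF3 and 47 for SRSF7, of 10609 and 11351 loci listed for each. Loci of 1 list alone, of any size, held 9.54% of SRSF3 cDNAs and 12.5% of SRSF7 cDNAs. For SRSF3 the most covered was Adam12, a metalloprotease gene, with 304 cDNAs, followed by the locus opposite Srsf3 with 215. For SRSF7 they were Rian with 478, an unnamed locus with 269 (chr13:84531427-84548663, plus strand) and another with 199 (chr4:155177165-155229245, plus strand). Usp48, a deubiquitinase gene, followed with 183, and then a locus opposite to and near Srsf7 (chr17:80689635-80694924) with 174.

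The lists also allow a check of the cell line. Of 8 pluripotency markers, 6 were listed for at least 1 protein, and Nanog and Esrrb for neither. Pou5f1 had 22 SRSF3 and 13 SRSF7 cDNAs and Sox2 6 and 3. Dnmt3b, a DNA methyltransferase of early embryonic cells, was 1 of 2 compared and was higher for SRSF7, with 67 and 162 cDNAs (log2 -1.47, -1.90 to -1.05). That call was lost without ribosomal and mitochondrial RNA. Lin28a had 39 and 83 cDNAs and was called in neither direction. These counts say which transcripts were bound and listed, not how strongly the genes were expressed.

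At the level of single nucleotides the proteins often met. Of SRSF3 positions 35.7% (35.4 to 35.9) had an SRSF7 position within 5 nt on the same strand, and these held 61.7% of SRSF3 cDNAs. Of SRSF7 positions 25.9% (25.7 to 26.2) had an SRSF3 position that near, with 50.3% of SRSF7 cDNAs. The lists shared 19014 nucleotides exactly. Nearness rose with height. Among positions with a single cDNA, 27.5% of SRSF3 and 20.0% of SRSF7 positions were near the other protein, against 84.0% and 92.9% of those with over 50 cDNAs. Tall positions lie in RNAs covered densely for both proteins, so this rise was not separated from coverage.

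**Figure D4:**
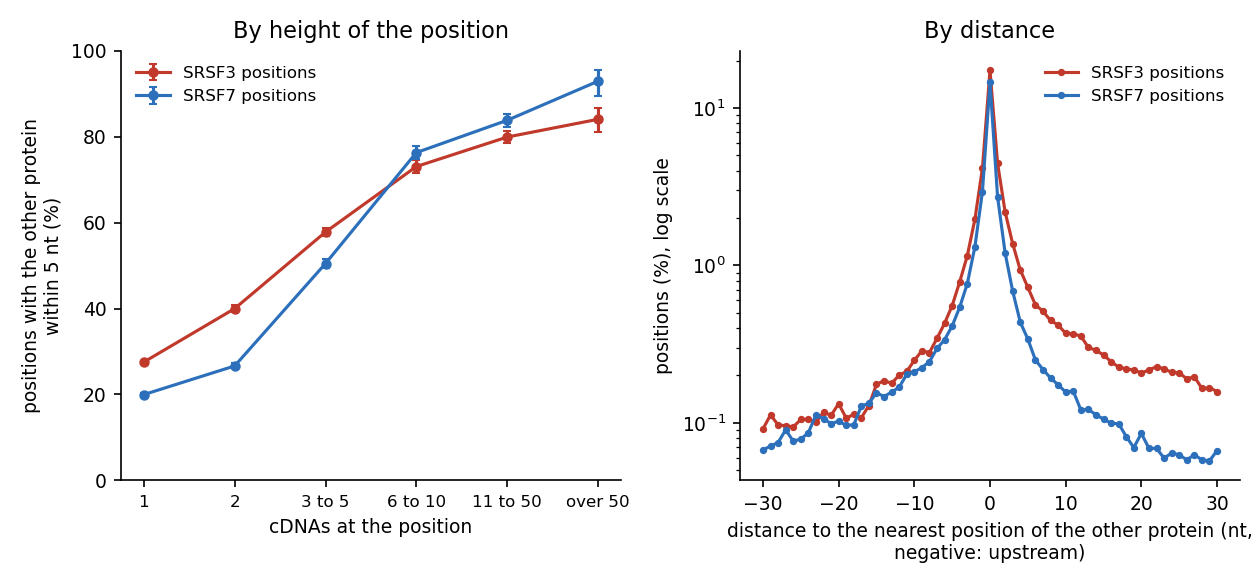
Left, the percentage of positions with the other protein within 5 nt, by number of cDNAs at the position, with 95% Clopper-Pearson intervals, rises from 27.5% to 84.0% for SRSF3 (red) and from 20.0% to 92.9% for SRSF7 (blue). Right, the percentage of positions whose nearest position of the other protein lies at each distance up to 30 nt, on a log scale, peaks at 0 nt with 17.4% and 14.6%.

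The distances were not symmetrical. For SRSF3 positions the nearest SRSF7 position lay 1 to 15 nt downstream in 13.6% and upstream in 11.1%. For SRSF7 positions the nearest SRSF3 position lay upstream in 8.12% and downstream in 7.003%. Both say that SRSF7 tended to lie on the 3′ side. In loci under 1 kb, a measure added after the values were seen, the median SRSF7 cDNA lay over 5 nt downstream of the median SRSF3 cDNA in 68 of 219 and over 5 nt upstream in 22. Among those with a tallest position of at least 10 cDNAs for both, the numbers were 28 and 6 of 103. In loci of 1 kb or more the balance was gone, with 362 downstream and 383 upstream of 874.

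The tallest position of a locus was often not shared. It was the same nucleotide for both proteins in 221 of the 1093 loci (20.2%), within 5 nt in 308 (28.2%) and over 1000 nt apart in 437. Where the tallest position held at least 10 cDNAs for both proteins, 120 of 245 loci (49.0%) had it at the same nucleotide and 15 had it over 1000 nt apart. In SRSF3-higher loci a median of 65.4% of the SRSF7 cDNAs lay at nucleotides that SRSF3 also had, whereas in SRSF7-higher loci it was 4.21%. For SRSF3 cDNAs at nucleotides of SRSF7 the medians were 30.3% and 21.4%. The calls themselves bear on these values, since a locus called lower for a protein offers few of its positions to match.

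Sites were followed along single loci, of which U8 and Rmrp were chosen after their values were seen. In the locus of U8 (Snord118), a snoRNA needed for rRNA maturation, SRSF3 had 2289 cDNAs and SRSF7 930. The tallest SRSF3 position, with 662 cDNAs, had 0 SRSF7 cDNAs, and the tallest SRSF7 position, 85 nt downstream, had 171 SRSF7 and 0 SRSF3 cDNAs. In Rmrp the median SRSF3 cDNA lay 4739 nt from the 5′ end of the locus and the median SRSF7 cDNA at 4798.5 nt, although both had their tallest position at the same nucleotide. SRSF3 had a further group of positions upstream that SRSF7 lacked.

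The 7SK RNA, which holds back the elongation factor P-TEFb, was called in neither direction, with 6541 and 4121 cDNAs (2.07% and 1.498%, log2 0.47, 0.41 to 0.52). Both proteins were tallest at 1 nucleotide, with 455 and 523 cDNAs. SRSF3 nevertheless reached farther upstream, with 50% of its cDNAs between 49 and 92 nt from the 5′ end of the locus, against 85 to 101 nt for SRSF7. Eif4g2 was like it. Its tallest position was shared, with 316 SRSF3 and 69 SRSF7 cDNAs, and the middle 50% of cDNAs lay at 6838 to 6886 nt for SRSF3 and 6873 to 6892 nt for SRSF7.

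**Figure D5:**
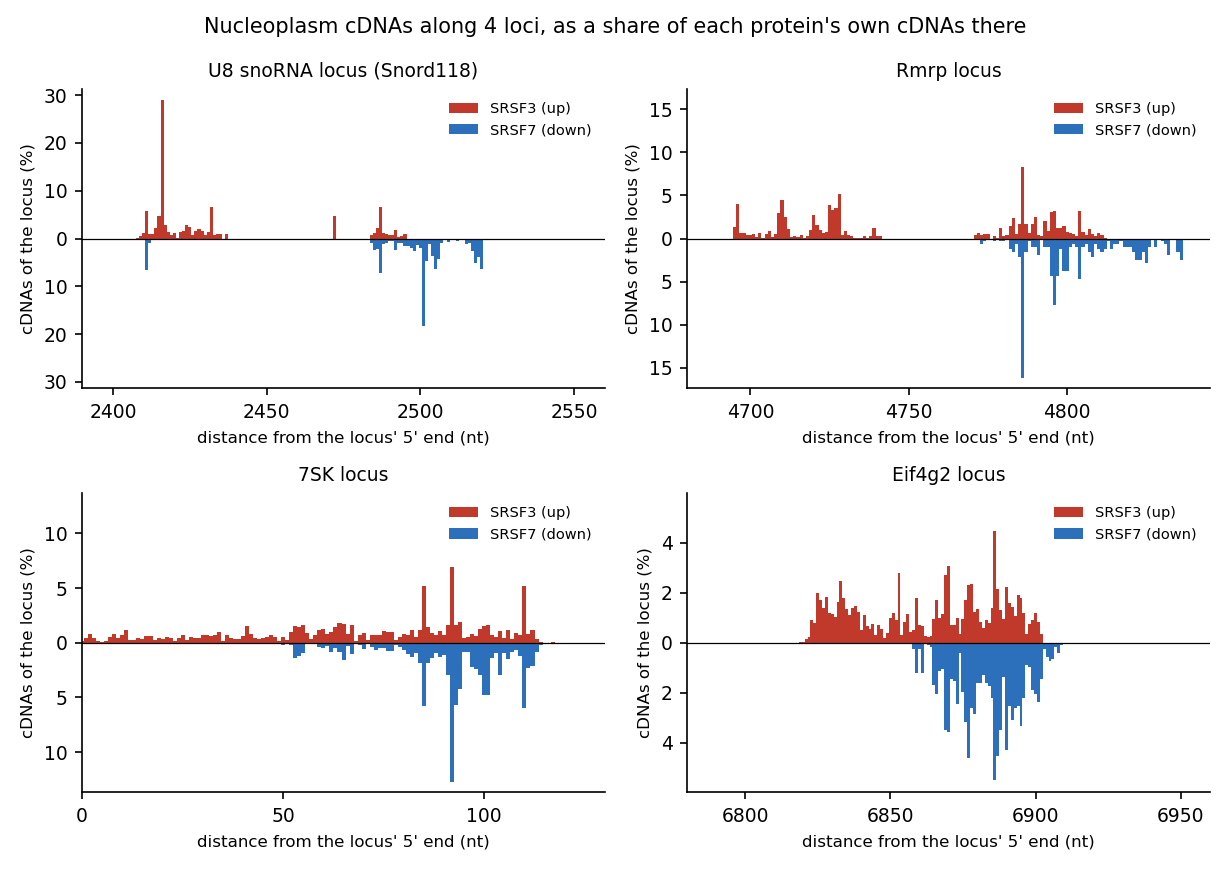
Nucleoplasm cDNAs at each nucleotide of 4 loci, as a percentage of each protein's own cDNAs in the locus, with SRSF3 upward in red and SRSF7 downward in blue, by distance in nt from the 5′ end of the locus. The panels of U8, Rmrp and Eif4g2 show the stretch that holds nearly all cDNAs. In each panel SRSF3 has cDNAs upstream that are few or missing for SRSF7, as in U8, where the median lies at 2419 nt for SRSF3 and 2501 nt for SRSF7.

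The calls of the nucleoplasm were followed into the other fractions, which are separate pooled lists. Of the 139 SRSF3-higher loci, 98 were compared in cytoplasm, where 31 were again higher for SRSF3 and 4 for SRSF7, with 13.97% of all loci compared there called higher for SRSF3. In chromatin 90 were compared, with 19 again higher for SRSF3 and 11 for SRSF7, against 21.4% of all loci compared there. Of the 200 SRSF7-higher loci, 100 were compared in cytoplasm, where 48 were again higher for SRSF7 and 2 for SRSF3, against 20.7% of all. In chromatin 165 were compared, with 26 again higher for SRSF7 and 42 for SRSF3, against 17.2% of all.

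Hnrnph1, Sfpq, Hnrnpu and Hnrnpl had log2 ratios of 0.35, 0.52, 0.04 and 0.91 in chromatin and of -2.66, -5.18, -1.73 and -3.11 in cytoplasm. Srsf1 had -0.52 in chromatin and -2.70 in cytoplasm. Hnrnpa1 had 1.89 in chromatin and -3.01 in cytoplasm, and Srsf6 had 1.83 and -2.14. Tra2a differed less, at -0.29 in chromatin and 0.13 in cytoplasm. Hnrnpk was at 4.00 in chromatin, with 455 and 4 cDNAs and so under the minimum. In cytoplasm Hnrnpk was at 0.71, called in neither direction. Eif4g2 had -1.58 in chromatin and 0.89 in cytoplasm. The SRSF3 chromatin list is much the largest of the 6, with 1768665 cDNAs against 248498 for SRSF7 chromatin, and the part of that depth in the chromatin ratios was not tested. Meg3 was lower for SRSF3 in all 3 fractions, at -5.39 in nucleoplasm, -5.29 in chromatin and -2.54 in cytoplasm.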

How the data were processed

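The authors pooled replicates and deposited 1 list per group, per the sample labels: 1-nucleotide entries whose value column is a signed whole-number cDNA count. Reading the sign as the strand is an inference. Per the file headers, listing required a false discovery rate under 0.05, from 100 permutations and a neighbourhood of 15 nt. For SRSF7 the track name says that regions were taken as 1, whereas its description says separately. The build is mm9, per the submitters' processing notes. The aligner is not given in the sources used here, nor are duplicate removal and the peak caller. No counts were normalised beyond division by each list's total.

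Shares carry 95% Clopper-Pearson intervals, and ratios conditional exact binomial intervals. Named loci came from the 5 highest per list, the 12 highest and 12 lowest ratios and the 5 most covered in 1 list only. Those of the gene lists were added. Not every locus of this rule is described, and others are said to be outside it. These choices were made with earlier results of these data known. Gene names come from known mm9 positions: of 100 proposed, all 100 matched a gene table of another build (GRCm38.p6) in chromosome and 81 of 81 in strand where it gives one. For 19 it gives none, an exception to the naming rule. One gene was removed from the lists and its values are not reported here. Locus calls were tested on simulated counts that vary by counting error only. That test could not show how the calls hold against variation between replicates or in peak calling. Intervals were computed with scipy 1.17.1, tables with pandas 2.3.3 and numpy 2.4.6, and plots with matplotlib 3.10.9, under Python 3.11.15. Alternatives were positions with at least 3 cDNAs, thinning, positions counted, other gaps, minimums and folds, and shares without ribosomal and mitochondrial RNA. For named loci, leaving out the tallest position of each locus was a further alternative.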

Additional observations from a re-analysis of the deposited data

Results flagged for a closer look

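Among the named loci, 7 were called in opposite directions in the nucleoplasm and in another fraction. The difference between fractions was not tested, since each list is 1 pooled value. In chromatin, Srsf5, Hnrnpc and Dnmt3b had log2 ratios of 1.74, 2.29 and 2.24, higher for SRSF3, against -3.86, -1.72 and -1.47 in nucleoplasm. The other way, the 45S locus, Eif4g2 and Rpsa, a ribosomal protein gene outside the naming rule, had -1.07, -1.58 and -1.33 in chromatin against 1.45, 2.29 and 2.56 in nucleoplasm. Rps12, another such gene also outside it, had 1.498 in cytoplasm and -1.17 in nucleoplasm. Among nucleoplasm calls also compared in chromatin, 53 were opposite there, 11 of 90 SRSF3-higher and 42 of 165 SRSF7-higher loci. Of all loci compared in chromatin, 17.2% were higher for SRSF7 and 21.4% for SRSF3. In cytoplasm 6 were opposite, 4 of 98 and 2 of 100, where 20.7% of all were higher for SRSF7 and 13.97% for SRSF3.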

How the results depend on the processing

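Each list pools its replicates, so leaving out a replicate was not possible. No paired analysis was possible because replicates were pooled before deposit. SRSF3-higher and SRSF7-higher loci numbered 56 and 103 of 404 with positions of at least 3 cDNAs, 76 and 87 of 705 with positions counted, 59 and 93 of 339 with at least 200 cDNAs, and 30 and 59 beyond 4-fold. Without ribosomal and mitochondrial RNA they numbered 211 and 138, and without the windows around Srsf3 and Srsf7 as well, added after the data were seen, 184 and 153. Thinning, a gap of 1000 nt and joining over the 2 lists alone moved neither number by over 1.5 times. The mitochondrial ratio was 5.39 with at least 3 cDNAs, 5.31 with positions counted and 7.65 outside the 45S locus. The 45S ratio was 2.20, 1.52 and, outside the mitochondrial genome, 2.98. Positions near the other protein made up, for SRSF3 and SRSF7, 17.4% and 14.6% within 0 nt, 42.1% and 29.7% within 15 nt, 46.8% and 32.2% within 30 nt, 47.9% and 52.2% with at least 3 cDNAs, 36.4% and 25.5% after thinning, and 34.5% and 24.7% outside ribosomal and mitochondrial RNA. By positions counted, Snhg1, Eef2 and, outside the naming rule, Zfas1 and Rps12 reversed, to log2 ratios of 0.27, 0.35, 0.029 and 0.14; the cause was not tested. The median span of SRSF3-higher loci was 4.59 kb and of SRSF7-higher loci 32.7 kb, and 0.542 and 5.57 kb with a gap of 1000 nt. Loci below the minimums, and loci missing from a list, are not shown to be unbound.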
